A study of Mus musculus with 2 samples.

Results

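The SLC25 family of mitochondrial carriers was examined in the mouse hippocampus, a brain region needed for memory formation. Members were the genes whose symbol is Slc25a followed by a number and that have at least 1 transcript typed as protein-coding in the deposited tables, which gave 47 of 55536 annotated genes and all 47 were measured. Both libraries came from female B6CASTF1/J mice aged 2 months, first-generation hybrids of C57BL/6J and CAST/EiJ, with 300 ng of total RNA as starting material. No treatment, transgene or mutation is named, the labels call the tissue a layer of the hippocampus, and the 2 libraries form 1 group without a control. They are called biological replicates 1 and 2, but both point to 1 donor record, so the spread between them may be technical.

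SLC25 carriers sit mostly in the inner mitochondrial membrane, which is closed to nearly all metabolites, and exchange nucleotides, phosphate, amino acids, carboxylates and cofactors between the cytosol and the matrix. The fold repeats a pair of membrane helices, and most members swap a substrate on one side for a substrate on the other. In brain the family is best known for supplying ATP to the cytosol and for carrying aspartate and glutamate, which links glycolysis, neurotransmitter metabolism and the malate-aspartate shuttle.

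Replicate 1 held 29490900 expected counts on annotated genes and replicate 2 held 30691917. A count of 0 allows up to 3 counts, or 0.102 CPM (counts scaled to the library total) in replicate 1 and 0.0977 CPM in replicate 2, and such limits and the intervals below cover counting error only. Neuronal, astrocyte and oligodendrocyte markers were all present, while 4 of 4 male germ cell markers were at 0 in both libraries and 4 of 4 liver markers were under 0.1 TPM (a level per transcript length, scaled within each library). Markers of 3 cell types moved most between the libraries: the summed level of 5 erythroid markers was 606 TPM in replicate 2 and 339.9 TPM in replicate 1, that of 5 dentate granule cell markers 191 and 166 TPM, and that of 5 choroid plexus markers 71.4 and 128 TPM. Most of the choroid plexus sum was Ttr, at 65.7 TPM in replicate 2 and 121 TPM in replicate 1, and 2 of the 5 markers reached 1 TPM in both libraries. Among the dentate granule cell markers C1ql2 went the other way, at 33.6 and 35.3 TPM. None of the 5 markers on any of these lists was at 0 counts in both libraries. In bulk tissue, fewer cells of a type and less RNA per cell cannot be told apart.

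Together the family held 1401 TPM in replicate 1 and 1383 TPM in replicate 2, or 0.346% and 0.343% of the summed TPM of nuclear protein-coding genes (0.344% ± 0.00238, SD, n = 2). The median member lay at 11.3 TPM in replicate 1 and 14.0 TPM in replicate 2, against 3.27 and 3.24 TPM over all nuclear protein-coding genes. Both member medians were the values of the same gene, Slc25a33, so the difference between them is that of this gene. Among detected genes, those at 1 TPM or more in both libraries, the medians were closer, at 16.2 and 16.8 TPM for members against 14.6 and 14.5 TPM for all nuclear protein-coding genes. Of the 47 members 39 were detected, where the share over all nuclear protein-coding genes was 58.0%. Levels were concentrated in few genes: the 5 members above 100 TPM held 59.6% of the family's TPM in replicate 1 and 59.0% in replicate 2, and 24 members reached 10 TPM in both libraries.

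**Figure D1:**
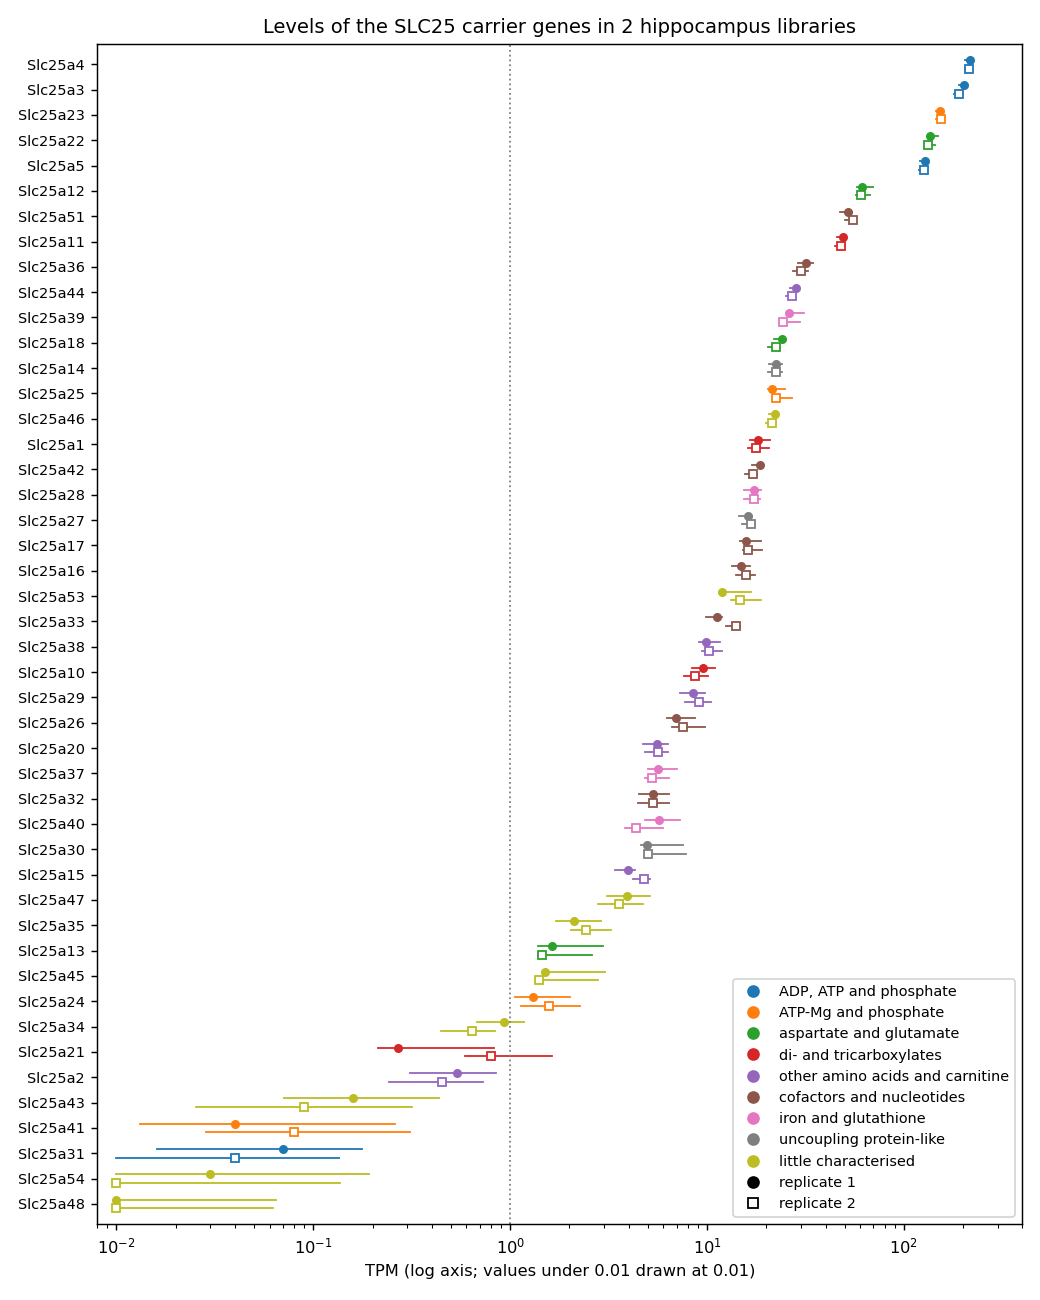
Level of 46 members in TPM on a log axis, 1 row a gene, with replicate 1 as a filled circle, replicate 2 as an open square, the authors' TPM interval as a line and the functional group as colour. The dotted line marks 1 TPM, and 38 of those drawn lie to its right in both libraries. Slc25a4, at 217 and 214 TPM, is at the top, above its own interval in both libraries.

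Members for ADP, ATP and phosphate formed the group with the largest sum, 547 TPM in replicate 1 and 531 TPM in replicate 2, or 39.01% and 38.4% of the family. Slc25a4, the adenine nucleotide translocase that prevails in heart, muscle and brain and exports ATP for ADP, was the highest member at 217 TPM in replicate 1 and 214 TPM in replicate 2 (chr8:46206797-46211284, minus strand, mm10). Its ubiquitous relative Slc25a5 had 128 and 127 TPM. The ratio of Slc25a4 to Slc25a5 was alike in both libraries, 1.69-fold in each (log2 0.76 ± 0.002, SD, n = 2). A second quantification of the same libraries gave a log2 ratio of 0.94 ± 0.01, so the SD between libraries understates the uncertainty. Reads of Slc25a5 were partly shared with other annotated sequences, as its counts were fractional, whereas those of Slc25a4 were whole. The germ-cell translocase Slc25a31 had 3 counts in replicate 1 and 2 in replicate 2, or 0.07 and 0.04 TPM. Its log2 ratio to Slc25a5 was -9.56 in replicate 1 (95% counting interval -13.2 to -9.33) and -9.82 in replicate 2 (-14.6 to -9.65). These ratios add 0.1 TPM to both genes, more than the level of Slc25a31, while the intervals come from counts without it. Without the added 0.1 TPM, Slc25a31 stood at 0.000545 and 0.000315 of the Slc25a5 level. The germ cell markers beside Slc25a31 were all at 0.

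Slc25a3, the carrier that brings phosphate in for ATP synthesis, followed at 201 TPM in replicate 1 and 189.5 TPM in replicate 2 (chr10:91116574-91124059, minus strand). Its transcripts choose between a pair of alternative exons, an upstream form known from heart and skeletal muscle and a downstream form found in most tissues. Both exons are shown because annotated transcripts differ in them, with capitals marking the 77 bases that match in an ungapped alignment, 61.6% of the longer exon. The upstream exon lies at chr10:91122207-91122331 and the downstream exon at chr10:91121922-91122043 (mm10, minus strand, letters from the GENCODE M21 transcripts).
Slc25a3 upstream exon: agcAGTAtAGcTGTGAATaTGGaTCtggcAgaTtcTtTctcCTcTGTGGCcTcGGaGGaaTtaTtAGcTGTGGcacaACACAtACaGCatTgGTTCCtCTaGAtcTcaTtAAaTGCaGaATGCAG
Slc25a3 downstream exon: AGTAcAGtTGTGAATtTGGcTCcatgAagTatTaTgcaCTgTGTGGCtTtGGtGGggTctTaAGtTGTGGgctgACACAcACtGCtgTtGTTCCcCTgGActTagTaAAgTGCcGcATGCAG

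Transcripts with the downstream exon carried nearly all of the coding Slc25a3 RNA. The upstream form made up 1.00% of the TPM of coding Slc25a3 transcripts in replicate 1 and 1.84% in replicate 2. A second quantification of the same libraries, also deposited by the authors, put it at 5.78% and 5.0%, higher in both libraries but still a small minority. The upstream form rests on 1 annotated transcript, Slc25a3-206, with 43.5 and 81.9 expected counts. In the second quantification that transcript had 269 counts in replicate 1 and 234 in replicate 2. Reads on the exon were not separated from reads elsewhere on the transcript. Muscle markers stood at 3.97 TPM in sum in replicate 1 and 3.75 TPM in replicate 2, with 1 of the 4 detected (the actin gene Acta1, 2.70 and 2.33 TPM), and their part in the upstream form was not tested.

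Carriers for aspartate and glutamate came next among the groups, at 223 TPM in replicate 1 and 217 TPM in replicate 2. Slc25a22, a carrier of glutamate with protons into the matrix, led them with 136 and 132 TPM (chr7:141429744-141437892, minus strand). Its relative Slc25a18, known from astrocytes, had 24.1 and 22.4 TPM, so that Slc25a22 was 5.65-fold higher in replicate 1 and 5.90-fold higher in replicate 2 (log2 2.52 ± 0.04). Slc25a12, the calcium-regulated aspartate-glutamate carrier of neurons and muscle and part of the malate-aspartate shuttle, had 61.1 and 60.7 TPM (chr2:71271063-71367749, minus strand). Slc25a13, the liver form of the same carrier, had 1.64 and 1.45 TPM on 87 and 99 counts. The resulting log2 ratio of Slc25a12 to Slc25a13 was 5.21 ± 0.11, the widest gap among pairs of which both members were detected apart from Slc25a23 over Slc25a24. It counts all transcripts of each gene. The full coding transcript Slc25a12-206 had only 8.66 TPM in replicate 1 and 7.38 TPM in replicate 2, so the gap between coding transcripts was narrower.

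Slc25a12 also showed a transcript pattern that differed from that of most members. Transcripts typed other than protein-coding held 85.8% of its TPM in replicate 1 and 87.8% in replicate 2, and 84.1% and 87.2% in the second quantification. The leading one, Slc25a12-207, is typed as a target of nonsense-mediated decay, the pathway that degrades RNAs with an early stop, and held 62.8% and 64.0% of the gene's TPM, with 46.0% and 44.8% in the second quantification. The full coding transcript Slc25a12-206 stood at 8.66 TPM in replicate 1 and 7.38 TPM in replicate 2, far below the gene's total. Slc25a12-207 lacks a 116-base exon at chr2:71333605-71333720, a length that is not a multiple of 3. In the annotation its reading frame then ends at a TAA in the following exon, at chr2:71324061-71324115 for the stretch shown. Both stretches are printed on the transcript strand, with the stop codon in capitals.
Slc25a12 skipped exon: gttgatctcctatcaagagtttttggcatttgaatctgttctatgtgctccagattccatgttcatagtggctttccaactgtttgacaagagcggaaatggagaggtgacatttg
Slc25a12 next exon, up to the stop: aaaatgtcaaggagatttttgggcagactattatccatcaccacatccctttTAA

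Exon skipping was not the only difference between these transcripts. Slc25a12-206 ends in a last exon of 4291 bases and Slc25a12-207 in one of 664 bases, so the estimate can rest on the 3′ end as well as on the skipped exon, and these were not separated. Counted in reads instead of TPM, transcripts that include the exon held 38.5% of the gene's expected counts in replicate 1 and 34.5% in replicate 2, against 25.9% and 23.0% of its TPM. The second quantification gave 46.9% and 42.0% of counts. Both the exon share and the leader depended on the scale. By TPM Slc25a12-207 led in both quantifications and both libraries, but by estimated counts of the second quantification Slc25a12-206 led in replicate 1, with 1617 against 1595 counts, and not in replicate 2, with 1434 against 1722.

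ATP-Mg carriers exchange ATP bound to magnesium for phosphate and thereby set the size of the matrix adenine nucleotide pool. Slc25a23, a calcium-binding member of this group, had 153 TPM in both libraries (chr17:57043711-57059863, minus strand). Slc25a25 had 21.5 TPM in replicate 1 and 22.5 TPM in replicate 2, and the log2 ratio of Slc25a23 to it was 2.79 ± 0.04. Slc25a24 had 1.31 and 1.58 TPM, and here the log2 ratio was 6.64 ± 0.17. Slc25a41, which lacks the calcium-binding domain of the others, had 1 count in replicate 1 and 2 counts in replicate 2. The log2 ratio of Slc25a23 to Slc25a41 was 10.1 in replicate 1 (95% counting interval 9.39 to 17.2) and 9.74 in replicate 2 (9.08 to 14.0). The 0.1 TPM added in these ratios exceeds the level of Slc25a41, 0.04 and 0.08 TPM, and the intervals leave it out. Without it Slc25a23 was 3818-fold higher in replicate 1 and 1918-fold higher in replicate 2. Slc25a23 was thus the highest of its group in each library, by a wide margin.

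Slc25a25 transcripts differ by a 36-base cassette exon at chr2:32420656-32420691 (mm10, minus strand), shown because both quantifications placed part of the RNA on each form. The letters are those of the transcript strand.
Slc25a25 cassette exon: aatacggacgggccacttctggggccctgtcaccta
Transcripts with the exon held 28.3% of coding Slc25a25 TPM in replicate 1 and 26.4% in replicate 2 (27.3% ± 1.34, SD, n = 2). The second quantification gave 35.2% and 29.8% (32.5% ± 3.83). The form without it, led by Slc25a25-205, was the more abundant in every estimate.

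Carriers of di- and tricarboxylates summed to 77.0 TPM in replicate 1 and 75.3 TPM in replicate 2. Slc25a11, the malate and 2-oxoglutarate carrier of the malate-aspartate shuttle, had 49.0 and 48.0 TPM and the dicarboxylate carrier Slc25a10 had 9.51 and 8.70 TPM, a log2 ratio of 2.40 ± 0.07. Slc25a1, which exports citrate for lipid synthesis, had 18.2 and 17.8 TPM. Slc25a21, an oxodicarboxylate carrier, had 9 counts in replicate 1 and 19 in replicate 2 and was not detected by the 1 TPM rule. Slc25a11 was therefore the highest of this group in both libraries, although its gene overlaps Rnf167 on the other strand over 245 bases.

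Transporters of other amino acids and of carnitine together held 56.8 TPM in replicate 1 and 57.3 TPM in replicate 2. Slc25a44, a carrier of branched-chain amino acids, led with 28.3 and 27.1 TPM, and Slc25a38, a glycine carrier needed for haem synthesis, had 9.85 and 10.2 TPM. The basic amino acid carrier Slc25a29 had 8.52 and 9.11 TPM and the carnitine-acylcarnitine carrier Slc25a20, which admits fatty acids for oxidation, had 5.58 and 5.61 TPM. Slc25a20 was below Slc25a29 in both libraries (log2 ratio -0.65 ± 0.06). Of the ornithine carriers of the urea cycle, Slc25a15 had 3.96 and 4.81 TPM, and Slc25a2 had 0.54 and 0.45 TPM on 15 and 13 counts (log2 ratio 2.91 ± 0.35). Slc25a15 was above Slc25a2 in both libraries.

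All 9 carriers of cofactors and nucleotides were detected, with sums of 181 TPM in replicate 1 and 185 TPM in replicate 2. Slc25a51, which brings NAD+ into mitochondria, had 52.2 and 55.2 TPM, and part of its reads was shared, as its counts were fractional. In the second quantification, scaled to the same total, it had 39.4 and 40.8 TPM. The pyrimidine nucleotide carrier Slc25a36 had 32.0 and 30.1 TPM and its relative Slc25a33 had 11.3 and 14.0 TPM, a log2 ratio of 1.30 ± 0.28. Slc25a36 exceeded Slc25a33 in both libraries.

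Slc25a42, a coenzyme A carrier, had 18.6 TPM in replicate 1 and 17.2 TPM in replicate 2, and its relative Slc25a16 had 14.8 and 15.9 TPM. The log2 ratio of Slc25a16 to Slc25a42 was -0.22 ± 0.15, and the second quantification turned it to 0.41 ± 0.15, so the order of these genes was not settled. The peroxisomal carrier Slc25a17 had 15.8 and 16.2 TPM. Slc25a26, which imports the methyl donor S-adenosylmethionine, had 6.92 and 7.52 TPM, and Slc25a32, linked to folate and FAD transport, had 5.30 and 5.33 TPM. Slc25a32 was below Slc25a37 and Slc25a40 in replicate 1 and above both in replicate 2.

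Mitochondrial iron enters through the mitoferrins. Slc25a28, the mitoferrin of most tissues, had 17.3 TPM in both libraries, while Slc25a37, the mitoferrin of red cell precursors, had 5.66 TPM in replicate 1 and 5.25 TPM in replicate 2 (log2 ratio of Slc25a28 to Slc25a37 1.65 ± 0.07). Erythroid markers were higher in replicate 2, as given above. For Slc25a37 the direction depended on the measure: its TPM in the gene tables was lower in replicate 2, while its counts were 622 in replicate 2 and 571 in replicate 1 (log2 ratio 0.06, 95% counting interval -0.11 to 0.23) and its scaled level in the second quantification was 4.88 and 4.69 TPM. The part of red cells in its level was not tested. Of the glutathione carriers, Slc25a39 had 26.0 and 24.4 TPM and Slc25a40 had 5.72 and 4.36 TPM (log2 ratio 2.31 ± 0.21). The second quantification put this ratio at 2.85 ± 0.01, so here too the SD between libraries understates the uncertainty. The higher member of each pair was the same in both libraries and in both quantifications.

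Most Slc25a37 RNA was assigned to a transcript that keeps an intron. Slc25a37-203, typed as retained intron, held 52.4% of the gene's TPM in replicate 1 and 69.7% in replicate 2, and 74.0% and 80.2% in the second quantification. The retained intron spans chr14:69247638-69249393, 1756 bases. Only 29.9% and 27.4% of Slc25a37 TPM fell on the full coding transcript Slc25a37-201, and 10.1% and 6.75% in the second quantification. The coding share was below that of the retained-intron transcript in every estimate.

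The 3 uncoupling protein-like carriers, of which Slc25a14 and Slc25a27 are known from brain, summed to 43.6 TPM in replicate 1 and 44.2 TPM in replicate 2. Slc25a14 had 22.5 and 22.4 TPM, Slc25a27 had 16.2 and 16.8 TPM, and Slc25a30 had 4.93 and 5.01 TPM. Slc25a27 was below Slc25a14 (log2 ratio -0.45 ± 0.04), and Slc25a14 was above Slc25a30 (2.15 ± 0.02). The order was the same in both libraries.

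Among the 9 little characterised members 5 were detected. Slc25a46, an outer membrane protein tied to mitochondrial shape, had 22.1 TPM in replicate 1 and 21.5 TPM in replicate 2, and Slc25a53 had 11.95 and 14.7 TPM. The Slc25a53 gene overlaps Zcchc18, which stood at 105 and 101 TPM on the other strand, over 5318 bases, and no source used here states whether the counting used strand. In all, 8 members overlap another gene above 0.5 TPM, 6 of them on the other strand, among them Slc25a18 with Atp6v1e1 over 32 bases. Slc25a35 overlaps Rangrf, which stood higher at 7.11 and 8.07 TPM on the other strand, over 1882 bases. Slc25a47, Slc25a35 and Slc25a45 lay between 1.40 and 3.93 TPM. Slc25a34 had 0.93 and 0.64 TPM, Slc25a43 had 4 and 2 counts (0.16 and 0.09 TPM, but 1.03 and 0.69 TPM in the scaled second quantification), Slc25a48 had 1 count in each library, and Slc25a54 had 1 and 0 counts. These last 4, with Slc25a21, Slc25a2, Slc25a41 and Slc25a31, were the 8 members not detected, and no member was at 0 in both libraries.

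Ordered by mean TPM, the members formed 46 neighbouring pairs. In 20 of them the values of the 2 members overlapped across the libraries, and in 26 they did not. Overlap did not require a change of order within a library. Slc25a27 overlapped Slc25a17 but lay above it in both, at 16.15 and 16.76 against 15.8 and 16.21 TPM. The authors' TPM intervals of both libraries separated 5 pairs, all among the highest 9 members: Slc25a4 from Slc25a3, Slc25a3 from Slc25a23, Slc25a22 from Slc25a5, Slc25a5 from Slc25a12 and Slc25a11 from Slc25a36. From Slc25a18 down to Slc25a46 each gene overlapped its neighbour. The SD between libraries was 4.07% of the mean in the median detected member.

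**Figure D2:**
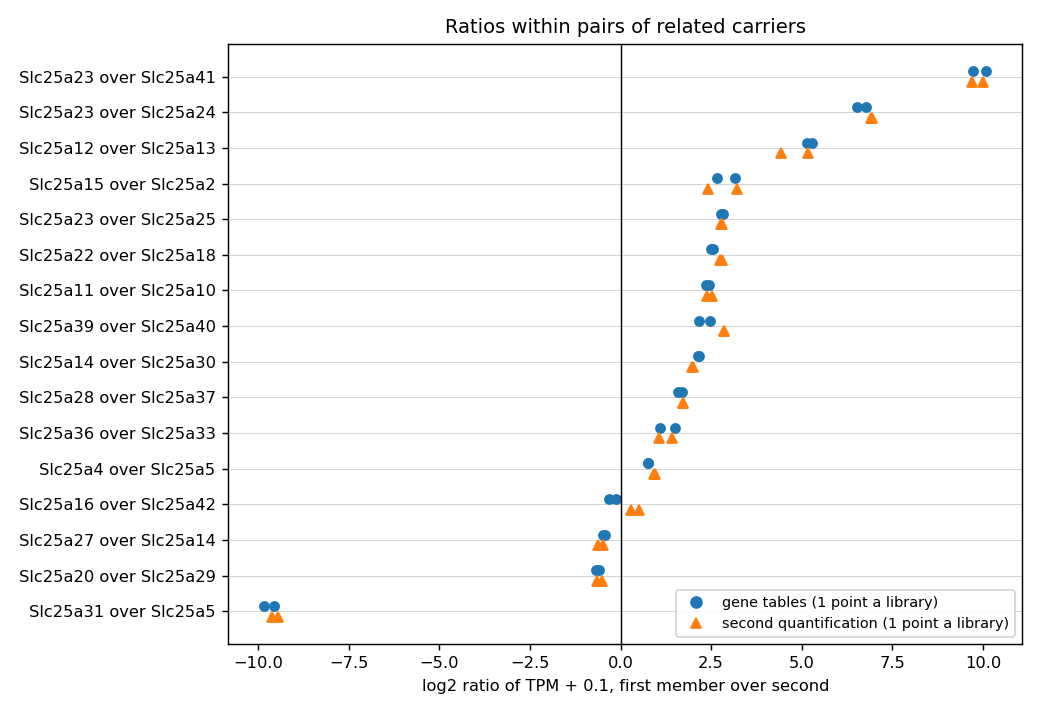
Log2 ratio of TPM + 0.1 within 16 pairs of related carriers, 1 point a library, with blue circles for the gene tables and orange triangles for the second quantification. Blue circles of 12 pairs lie right of 0, the first member being higher in both libraries, and those of 4 lie left of 0. Slc25a16 over Slc25a42 is the 1 pair whose sign turned in the second quantification.

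Across the 16 pairs of related carriers, the first member as listed was higher in both libraries in 12 and the second in 4. The second quantification gave the same sign in 15. Members were placed much alike by both quantifications, with Pearson's r of 0.994 across the log2 levels of 39 detected members, which share libraries and reads. Scaled to the same total, levels in the second quantification were 0.747 to 1.41 times those in the gene tables, and 33 of the 39 were within 1.25-fold.

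Differences between the libraries were small for nearly all members. Ratios were taken as replicate 2 over replicate 1 for the 40 members with a mean of 1 CPM or more, and the 7 below it were left out. None reached a log2 ratio of 1 in size, beside 0.529% of all 15509 genes tested. The ratios ran from -0.55 for Slc25a34 to 0.31 for Slc25a33, with 17 members higher in replicate 2 and 23 higher in replicate 1, and a median of -0.02 against -0.01 over all genes. Their median size was 0.066, against 0.073 in nuclear protein-coding genes. With 1 library against 1 library no test was possible.

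Slc25a33 was the 1 member whose authors' intervals did not overlap, 12.5 to 14.7 TPM in replicate 2 and 9.91 to 11.97 TPM in replicate 1, beside 4.38% of all genes tested. It had 566 counts in replicate 2 and 437 in replicate 1, a log2 ratio of 0.31 (95% counting interval 0.13 to 0.49). Slc25a15 had 377 and 301 counts (log2 0.26) and Slc25a30 had 344 and 296 counts (log2 0.15). On the other side Slc25a40 had 241 counts in replicate 2 and 287 in replicate 1 (log2 -0.31), Slc25a45 had 65 and 73 (log2 -0.23), and Slc25a39 had 787 and 839 (log2 -0.15). Erythroid, dentate granule cell and choroid plexus markers differed between the same libraries, and their part in these ratios was not tested.

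**Figure D3:**
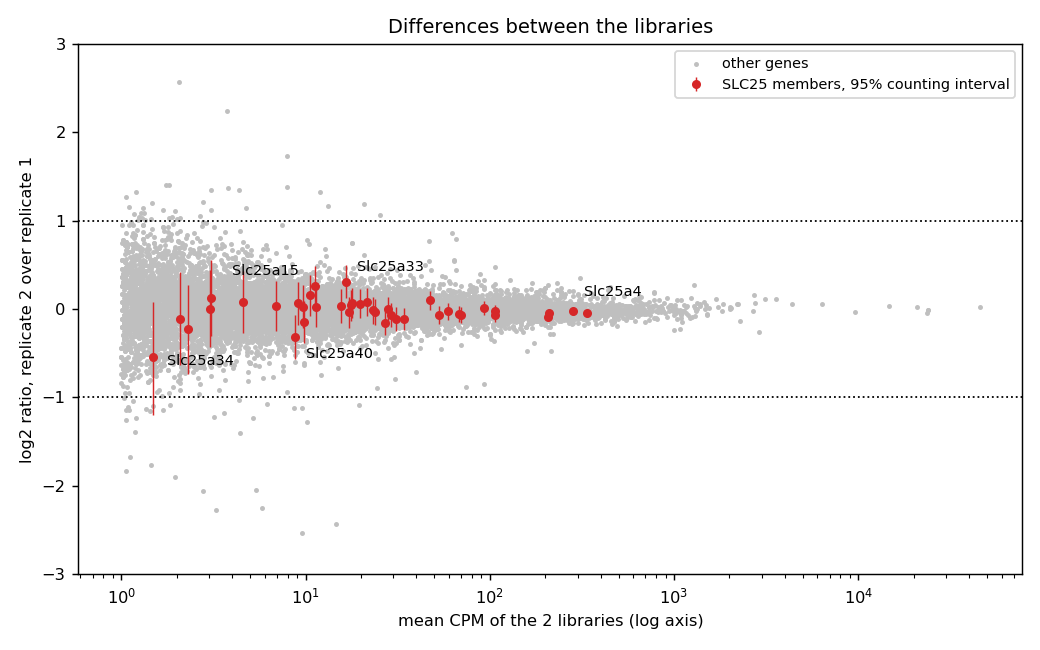
Log2 ratio of replicate 2 over replicate 1 against mean CPM on a log axis, with members in red with their 95% counting intervals and other genes in grey. Dotted lines mark a ratio of 1 in size, and all 40 members lie between them. Outside the drawn range of 3 in size lie 13 other genes.

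Transcript types were compared in the 39 members with a mean of 1 TPM or more. They had 1 to 25 annotated transcripts each, with a median of 5, and 2 had a single one. In the median member 12.7% of TPM in replicate 1 and 10.9% in replicate 2 fell on transcripts not typed protein-coding, against 11.9% and 12.6% over nuclear protein-coding genes at the same minimum. In 6 members it was over 50% in both libraries, beside 9.57% of such genes. They were Slc25a47 (89.0% and 85.5%), Slc25a12, Slc25a53 (75.2% and 82.5%), Slc25a37 (70.1% and 72.6%), Slc25a28 (61.6% and 63.5%) and Slc25a40 (53.9% and 56.4%). The second quantification found 5, beside 11.6% of genes, and 4 were common to both: Slc25a12, Slc25a37, Slc25a47 and Slc25a53. Slc25a47 rests on 64 counts in replicate 1 and 62 in replicate 2, and its leading transcript differed between the libraries in both quantifications. Slc25a53 overlaps the higher Zcchc18, as given above, and the part of that overlap in its shares was not tested.

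**Figure D4:**
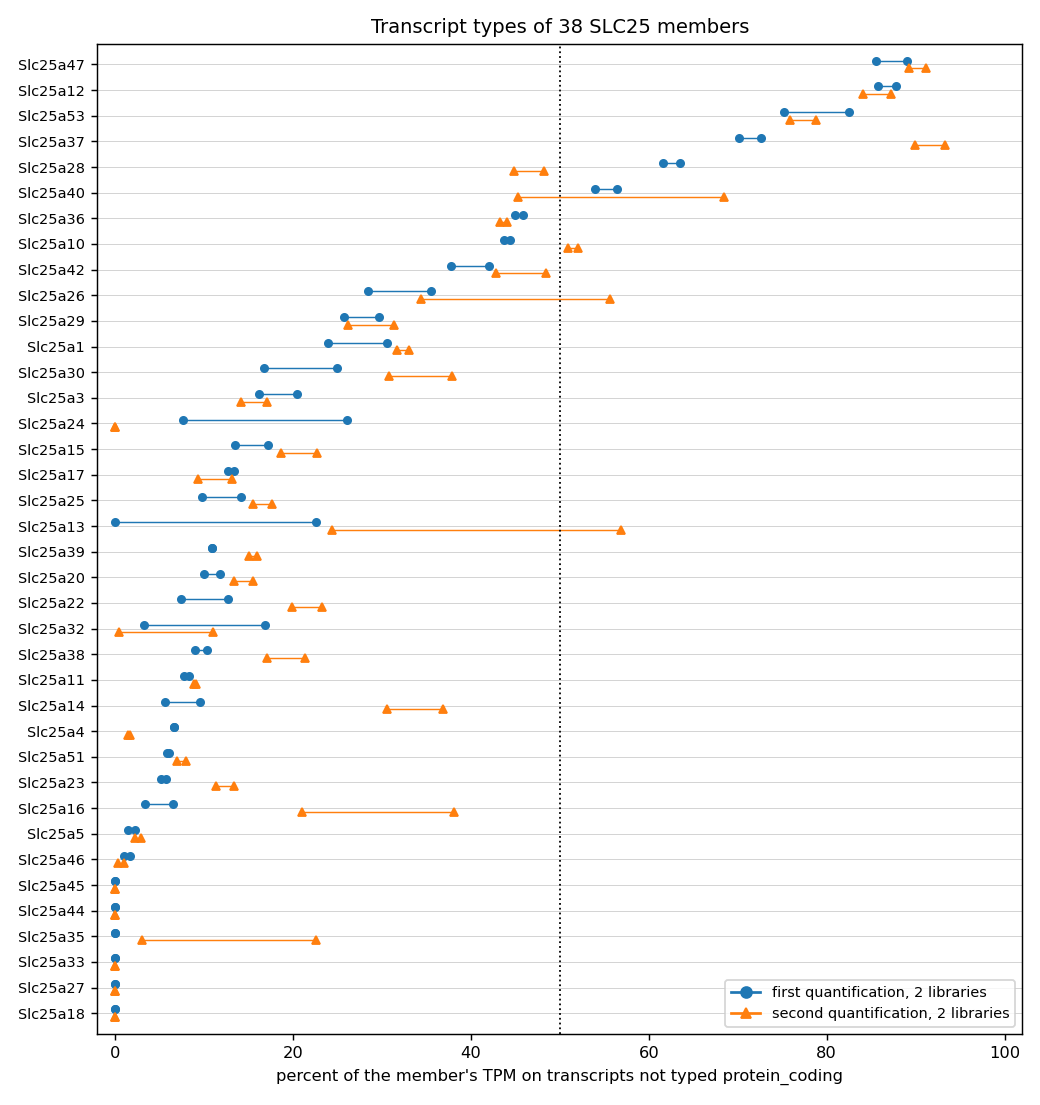
Percent of TPM on transcripts not typed protein_coding in 38 members, with blue circles for the first quantification, orange triangles for the second and a line joining the 2 libraries. The dotted line marks 50%. Slc25a47, Slc25a12, Slc25a53 and Slc25a37 lie right of it in all 4 estimates.

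The same transcript led in both libraries and both quantifications in 27 of the 39 members, a share near the 68.6% of nuclear protein-coding genes. In replicate 1 taken alone, the leader differed between the quantifications in 8 members. Among members at 5 TPM or more, the share of the leading transcript moved most in Slc25a22. Slc25a22-203 held 66.6% of its TPM in replicate 1 and 65.3% in replicate 2, but 0.107% and 1.95% in the second quantification, where Slc25a22-201 led with 36.2% and 39.4%. Both of these transcripts have an annotated coding length of 969 bases, so the change of leader did not alter it.

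A like change was seen in Slc25a3, where Slc25a3-201 led with 76.3% in replicate 1 and 78.0% in replicate 2, and Slc25a3-203 led in the second quantification with 58.2% and 63.4%. Both include the downstream exon printed above and both have a coding length of 1071 bases. Slc25a42 passed its lead from Slc25a42-201 (60.5% and 58.0%) to Slc25a42-202 (34.5% and 41.7% in the second quantification). Slc25a39-201 kept the lead but held 84.1% and 77.5% in the first quantification and 45.7% and 40.7% in the second. In none of these 4 members did the leader differ between the libraries within a quantification.

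**Figure D5:**
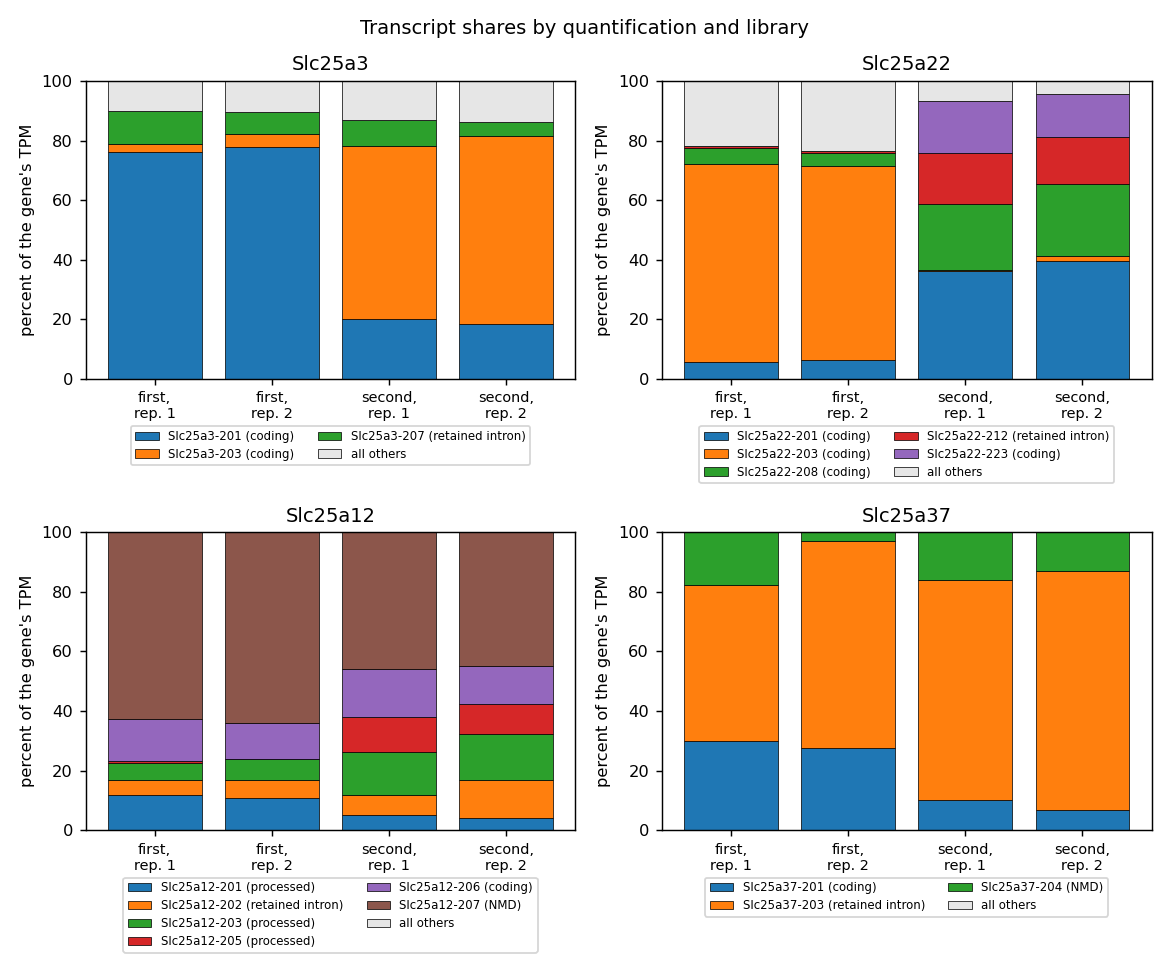
Stacked shares of each gene's TPM by transcript for Slc25a3, Slc25a22, Slc25a12 and Slc25a37, in both quantifications and both libraries. Transcripts that reach 10% in any bar have a colour, and the rest are pooled in grey. The leading transcript of Slc25a3 and Slc25a22 changes with the quantification, while Slc25a12-207 and Slc25a37-203 lead in all 4 bars.

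Members shared a short coding length, 795 to 2031 bases with a median of 954, and 7 were over 1200. The longest were Slc25a12 and Slc25a13, at 2031 and 2028 bases, which carry a calcium-binding domain in front of the carrier. Members lay on 19 chromosomes, 4 of them on X (Slc25a5, Slc25a14, Slc25a43 and Slc25a53). Their proteins were not analysed here.

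Promoter windows of 250 bases before to 50 after the start were matched in RefSeq (GRCm38.p6) for 36 of the 47 members, and the dinucleotide CG, which reads the same on both strands, was counted in each. The median member had 17, against 14 over 16522 nuclear protein-coding genes, and 29 of the 36 had 10 or more, against 58.9% of genes. At least 1 CG was found in 95.04% of all these windows. In the 30 detected members the median was 18.5, against 21 over detected genes, and in the 6 members not detected it was 12.5, against 3 over genes not detected. Slc25a31, near 0 in these libraries, had 22, and Slc25a5, at 128 and 127 TPM, had 18, so within this pair the count did not follow the level.

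Other genes of mitochondrial transport were described from 5 lists of 36 genes. Of these 35 were detected, where the share over all nuclear protein-coding genes was 58.0%. None of the 35 tested reached a log2 ratio of 1 in size between the libraries in either direction. Over all 15509 genes tested that share was only 0.529%, so a count of 0 says little about these genes. Among carrier-fold genes with other symbols Mtch1, an outer membrane protein, was highest with 227 TPM in replicate 1 and 229 TPM in replicate 2. Ucp1, the uncoupling protein of brown fat, was the 1 gene not detected, at 0 and 0.06 TPM. The pore Vdac1 led the outer membrane list with 208 and 201 TPM. Sfxn5, a sideroflexin, led the other inner membrane transporters with 66.2 and 68.3 TPM, and the import receptor Tomm20 led the import list with 78.4 and 81.5 TPM. Of the malate-aspartate shuttle enzymes, the cytosolic malate dehydrogenase Mdh1 was highest with 255 and 260.4 TPM. The shuttle's carriers stood lower, Slc25a12 at 61.1 and 60.7 TPM and Slc25a11 at 49.0 and 48.0 TPM.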

How the data were processed

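Total RNA of mouse hippocampus was sequenced in 2 libraries of 1 group, with ERCC spike-ins meant for stranded, ribosomal RNA-reduced libraries and mm10 as assembly, per the labels. The notes deposited with the files name the GENCODE M21 annotation. The authors' software and their use of strand are not given in the sources used here. The gene and transcript tables give each feature an expected count and TPM, per the file headers, with columns arranged as in RSEM output, and their interval bounds are a score computed by the authors. A further transcript table, deposited by the authors with columns as in kallisto output, gives estimated counts and TPM per transcript, which were summed per gene and called the second quantification. For comparisons of levels these sums were scaled to the gene tables' summed TPM of nuclear protein-coding genes in each library.

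Members were joined by gene identifier. The members and lists were chosen with earlier results of these data known. Expected counts were rounded, and ratios used counts plus 0.5 over library sizes scaled with edgeR 4.0.16 TMM factors, for genes at 1 CPM or more, and were called apart at a log2 size of 1. With 1 group of 2 libraries no p-values were computed. Pair ratios used TPM plus 0.1 within each library. Counting intervals are exact 95% intervals from counts without these added values. Counts within 0.005 of a whole number were taken as whole, which held for 42 members, and the other 5 (Slc25a3, Slc25a5, Slc25a36, Slc25a37 and Slc25a51) share reads with other annotated sequences.

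Values per library were given for the 15 highest members, both members of each pair, the 3 members with the largest ratio each way at 1 TPM and 50 counts or more, and the 5 members at 5 TPM or more whose leading transcript moved most between quantifications. The highest gene of each pathway list was named too, and members outside these rules were named to account for all. Protein features are not analysed here. Values of 1 member that these rules take are not reported here, and it stays in the counts and sums. Alternatives were DESeq2 1.42.0 size factors, other minimums and pseudocounts, the second quantification, shares of expected counts and each library left out. The ratio computation was tested on simulated data. R 4.3.3, limma 3.58.1, matplotlib 3.10.9, Biopython 1.88, scipy 1.17.1, pandas 2.3.3, numpy 2.4.6 and Python 3.11.15 were used.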

Additional observations from a re-analysis of the deposited data

How the results depend on the processing

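The count of detected members was 31 to 41 under other minimums and in the second quantification, against 39, and 39 in the second quantification once it was scaled, an alternative chosen after seeing the data. The family's share of nuclear protein-coding TPM was 0.344%, with 0.333% in the second quantification and 0.264% as a share of expected counts, and 0.343% to 0.346% with either library left out. The median level of members was 12.6 TPM, 16.5 TPM over members at 1 TPM or more only, and 11.3 to 14.0 TPM with either library left out. The count of members called apart was 0, and 1 with no filter on low counts, which was Slc25a54 with 0 counts in replicate 2 and 1 in replicate 1. The count of pairs with the first member higher was 12 to 13 and that of members mostly on transcripts not typed protein-coding 5 to 6 under the alternatives run. Of the 16 single pair ratios 1 reversed: Slc25a16 over Slc25a42 had a log2 ratio of 0.41 in the second quantification, and the cause was not tested. In the second quantification 9 other pairs moved by more than the SD between libraries and kept their sign. With a pseudocount of 1 in place of 0.1, 12 of the 16 did so. Under the scaled second quantification 32 of the 47 single levels moved by more than the SD between libraries, as did 33 of the 39 shares of the leading transcript in the second quantification. All 40 single ratios stayed within their counting intervals under the 3 alternatives run. No paired analysis was possible because both libraries belong to 1 group. Ratios between libraries cannot be computed with a library left out. Of the 8 members not detected, 6 had an upper interval bound under 1 TPM in both libraries, and for the other 2, Slc25a34 and Slc25a21, the bound passed 1 TPM in 1 library, so depth leaves their side of the minimum unsettled. Slc25a43 had a level of 0.125 TPM, and 0.862 TPM in the scaled second quantification.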
